A study of Homo sapiens with 12 samples.

Results

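The phagocyte NADPH oxidase genes CYBA, CYBB, NCF1, NCF4 and RAC2 were followed across 12 libraries of the cell line SET-2, labelled as human acute myeloid leukemia. Each of the 5 symbols matched 1 Ensembl gene among the 63677 genes of the count tables. The genes were chosen by symbol, as membrane and cytosolic subunits of the enzyme, and not by their levels. Earlier results of these data were known when they were chosen. Cells carried LSD1 with an arginine inserted after leucine 659 (Leu659_Asn660insArg, insR), which the labels call drug-resistant, or wild-type LSD1 (WT). KDM1A encodes LSD1, which removes methyl groups from histones. For 48 h each kind of cell was kept in 250 nM GSK-LSD1, which inhibits that enzyme, or in DMSO as vehicle at 0.1% by volume. The 4 groups had 3 libraries each. Whether the insR cells are 1 clone is not given in the sources used here. The labels do not say if the replicates came from separate cultures. The p-values therefore reflect only how far these samples spread, and that spread may be technical.

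The phagocyte NADPH oxidase moves electrons from NADPH across a membrane to oxygen and makes superoxide, the first product of the respiratory burst of neutrophils and macrophages. Its catalytic core is a membrane heterodimer of gp91phox, encoded by CYBB, and p22phox, encoded by CYBA. In resting cells p47phox (NCF1) and p40phox (NCF4) wait in the cytosol, and on activation they join the core together with a GTP-bound Rac protein, which in blood cells is mainly RAC2. Inherited loss of CYBB, CYBA, NCF1 or NCF4 causes chronic granulomatous disease. The 5 genes lie on 4 chromosomes, with NCF4 and RAC2 both on chromosome 22 and the others on X, 16 and 7.

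RefSeq gave a promoter for 3 of the 5 genes. These promoters, of CYBB, NCF1 and CYBA, differ in base composition and motifs, and whether this bears on the levels of the genes was not tested. Each runs 5′ to 3′ from 250 bases before to 50 bases after the annotated start on GRCh38.p14, at chrX:37779809-37780108 (plus strand) for CYBB, chr7:74773761-74774060 (plus strand) for NCF1 and chr16:88651004-88651303 (minus strand) for CYBA. Capitals mark GAGGAA on either strand (TTCCTC as printed), letters found in sites of the ETS factor PU.1.
CYBB: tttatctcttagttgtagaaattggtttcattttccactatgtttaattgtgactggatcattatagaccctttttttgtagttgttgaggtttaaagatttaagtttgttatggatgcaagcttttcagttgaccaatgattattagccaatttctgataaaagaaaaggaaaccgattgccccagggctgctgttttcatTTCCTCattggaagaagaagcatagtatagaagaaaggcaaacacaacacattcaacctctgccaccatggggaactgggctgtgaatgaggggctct
NCF1: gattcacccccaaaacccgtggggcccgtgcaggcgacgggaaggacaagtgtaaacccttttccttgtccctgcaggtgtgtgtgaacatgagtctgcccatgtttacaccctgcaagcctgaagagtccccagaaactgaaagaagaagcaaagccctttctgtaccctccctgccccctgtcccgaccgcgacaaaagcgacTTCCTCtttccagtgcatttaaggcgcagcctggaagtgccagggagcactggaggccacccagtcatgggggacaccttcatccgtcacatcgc
CYBA: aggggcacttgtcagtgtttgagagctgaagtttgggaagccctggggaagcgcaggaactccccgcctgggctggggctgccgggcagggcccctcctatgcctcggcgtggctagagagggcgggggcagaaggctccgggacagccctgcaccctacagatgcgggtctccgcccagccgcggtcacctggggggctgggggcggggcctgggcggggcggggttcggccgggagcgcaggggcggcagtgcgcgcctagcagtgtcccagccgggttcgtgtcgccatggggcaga
GAGGAA was found once in CYBB, from 48 bases before the start, and once in NCF1, from 45 bases before it, and not in CYBA. It occurred in 27.9% of the 35116 promoters of the same length. GGGCGG, the GC box, was found 6 times in CYBA and not in the others, and 45% of all promoters hold it on either strand. CCAAT was found 4 times in CYBB and not in the other genes, against 34.6% of all promoters with a match. Neither motif overlaps the capitals, and within CYBA 2 of the GC boxes share 1 base. The GC content was 37.7% for CYBB, 57.3% for NCF1 and 72.7% for CYBA, with a median of 58.7% over all promoters. A match is a run of letters, not a bound site, and binding was not measured here.

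Libraries held 4837096 to 10141155 reads in genes, so that 3 counts, the limit that a count of 0 allows, were worth 0.296 to 0.62 CPM, the count relative to the library's total after TMM scaling. KDM1A averaged 106 ± 4.56 CPM in insR GSK-LSD1, 109 ± 2.18 in insR DMSO, 217 ± 3.01 in WT GSK-LSD1 and 265 ± 26.5 in WT DMSO (SD, n = 3 each). A 3' tag count cannot reveal the inserted codon, so KDM1A is no check of the genotype labels. Of 9 monocyte and macrophage markers, FCN1 and S100A8 had 0 counts in all 4 groups, and of 8 neutrophil markers CEACAM8, FCGR3B and AZU1 did. Summed over the list, erythroid markers ranged from 2740 to 3550 CPM in insR libraries, 423 to 462 in WT GSK-LSD1 and 1640 to 1930 in WT DMSO. Megakaryocyte markers ranged from 742 to 818 CPM in insR libraries, 1150 to 1330 in WT GSK-LSD1 and 799 to 856 in WT DMSO, with PF4 at 0 counts throughout. Single megakaryocyte genes did not all follow this sum. Under GSK-LSD1 in WT cells ITGA2B had a log2 fold change of 0.68, but GP9 had -1.56 and ITGB3 -1.29.

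Of the membrane subunits, CYBA rose under GSK-LSD1 in WT cells, and CYBB, at a few CPM, was called in none of the comparisons. CYBA was at 31, 27.3 and 31.4 CPM in WT GSK-LSD1, against 12.1, 17 and 25 CPM in WT DMSO. The treated libraries all lay above the untreated ones, among which replicate 3 stood highest. The means were 29.9 ± 2.27 CPM in WT GSK-LSD1 and 18 ± 6.51 CPM in WT DMSO (SD, n = 3 each). The log2 fold change was 0.74 (SE 0.18, edgeR quasi-likelihood test, Benjamini-Hochberg adjusted p = 0.00234), a fold of 1.67. In insR cells CYBA was at 14.7, 18.9 and 15.5 CPM under GSK-LSD1, against 15.7, 16.7 and 12.5 CPM in DMSO, and these groups overlapped. That log2 fold change was 0.11 (95% interval -0.30 to 0.52, edgeR adjusted p = 0.967).

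The difference between the CYBA responses, insR minus WT, was -0.62 on the log2 scale (95% interval -1.18 to -0.06) and did not pass after adjustment (edgeR adjusted p = 0.097). Without WT DMSO replicate 3 it was -0.91 and passed (edgeR adjusted p = 0.00605, with 0.00605 to 0.245 over the alternatives). Under GSK-LSD1, CYBA was lower in insR than in WT cells, with a log2 fold change of -0.88 (SE 0.19, edgeR adjusted p = 0.000377). In DMSO the same comparison gave -0.26 (95% interval -0.66 to 0.14, edgeR adjusted p = 0.341). From low to high, the groups ran insR DMSO at 14.9 CPM, insR GSK-LSD1 at 16.3, WT DMSO at 18 and WT GSK-LSD1 at 29.9, and the first 3 overlapped one another.

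CYBB, the catalytic subunit, was at 1.93, 1.45 and 2.79 CPM in insR GSK-LSD1, from 12, 7 and 18 counts, and at 2.64, 1.48 and 3.51 CPM in insR DMSO, from 26, 9 and 20 counts. It was at 1.89, 3.46 and 1.93 CPM in WT GSK-LSD1, from 10, 18 and 19 counts, and at 3.34, 2.95 and 3.22 CPM in WT DMSO, from 19, 22 and 18 counts. The insR GSK-LSD1 libraries all lay below WT DMSO, every other pair of groups overlapped, and group means were 2.06 to 3.17 CPM. The log2 fold change under GSK-LSD1 was -0.28 in insR cells (95% interval -1.08 to 0.53) and -0.42 in WT cells (-1.18 to 0.35). These intervals leave room for changes in either direction at this depth, and the edgeR adjusted p was 0.957 and 0.375. insR against WT cells gave -0.31 in DMSO (-1.05 to 0.44) and -0.17 under GSK-LSD1 (-0.99 to 0.66). AF241726.2, a protein-coding gene annotated on the same strand, overlaps CYBB and had 0 counts in all libraries. Whether reads shared by both genes were left uncounted was not tested.

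**Figure D1:**
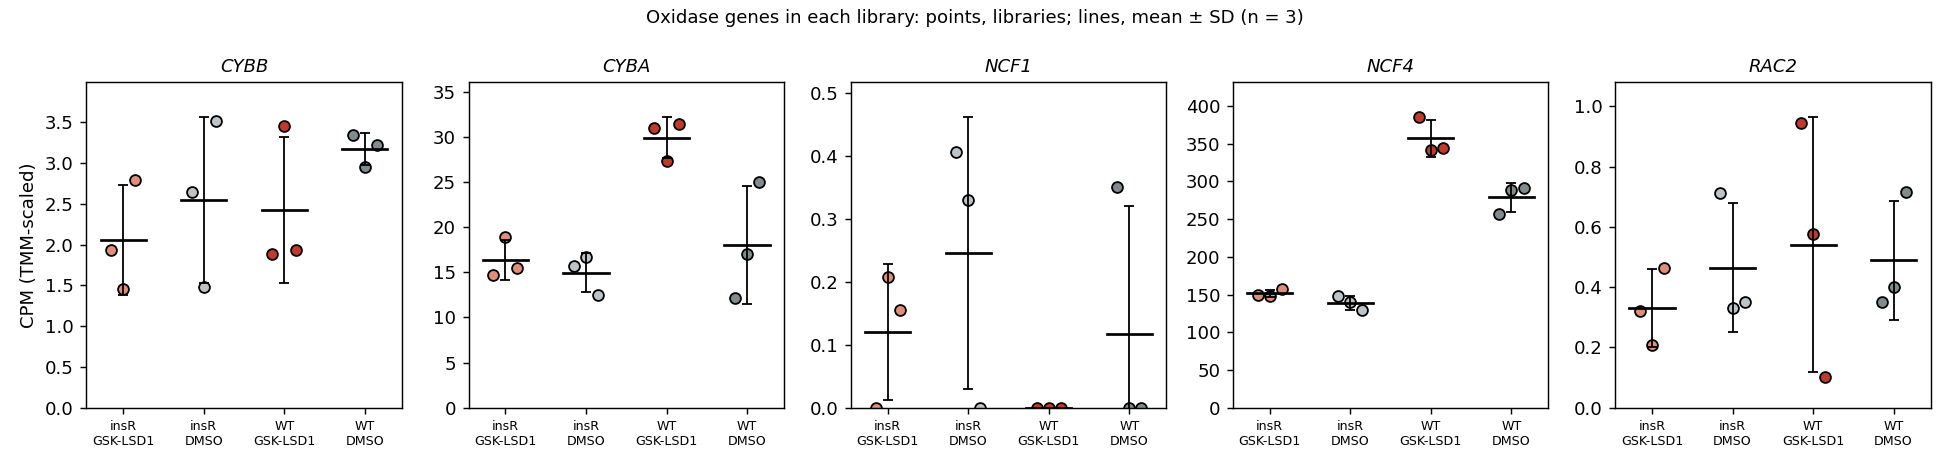
CPM of the 5 oxidase genes (y axis, each panel from 0 on its own scale) in insR and WT cells with GSK-LSD1 or DMSO. Points are libraries in replicate order and lines are the mean ± SD of 3. CYBA lies at 27.3 to 31.4 CPM in WT GSK-LSD1 and at or below 25 CPM in every other library, NCF4 falls into separate insR and WT ranges, and RAC2 and NCF1 stay below 1 CPM.

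Among the cytosolic subunits NCF4, which encodes p40phox, had 715 to 3383 counts per library. It was lower in insR than in WT cells with either treatment, and rose under GSK-LSD1 in WT cells. NCF4 was at 150, 148 and 157 CPM in insR GSK-LSD1, 148, 140 and 129 in insR DMSO, 385, 342 and 344 in WT GSK-LSD1 and 257, 289 and 291 in WT DMSO. Every insR library lay below every WT library, and within WT cells every treated library lay above every untreated one. In DMSO NCF4 was lower in insR cells, at 139 ± 9.78 CPM against 279 ± 18.9 CPM in WT cells (SD, n = 3 each). The log2 fold change was -1 (SE 0.08, edgeR adjusted p = 5.81e-10). Under GSK-LSD1 it was -1.23 (SE 0.08, edgeR adjusted p = 5.31e-12), with 152 ± 4.36 CPM in insR and 357 ± 24.3 CPM in WT cells. In bulk RNA, fewer cells with a transcript and less of it per cell cannot be told apart.

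In WT cells NCF4 rose under the inhibitor by a log2 fold change of 0.36 (SE 0.08, edgeR adjusted p = 0.000753), a fold of 1.28. In insR cells the log2 fold change was 0.13 (95% interval -0.04 to 0.30, edgeR adjusted p = 0.811). There the highest untreated and the lowest treated library were both at 148 CPM as rounded. The difference in response, insR minus WT, was -0.23 (95% interval -0.47 to 0.01, edgeR adjusted p = 0.148), so the NCF4 responses were not shown to differ. The comparisons of WT treatment and of genotype in DMSO share the WT DMSO libraries. From low to high the groups ran insR DMSO, insR GSK-LSD1, WT DMSO and WT GSK-LSD1. Of the neighbours only the insR pair shared a value, the rounded 148 CPM. NCF4-AS1, annotated on the opposite strand of NCF4, had 0 counts in all libraries.

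NCF1, the p47phox organizer that carries the cytosolic complex to the membrane, was almost without reads. It had 0, 1 and 1 counts in insR GSK-LSD1, 4, 2 and 0 in insR DMSO, 0, 0 and 0 in WT GSK-LSD1 and 2, 0 and 0 in WT DMSO. The 0 counts of WT GSK-LSD1 allow a level of up to 0.148 CPM over that group. NCF1 has the near-identical copies NCF1B and NCF1C, and reads that align to several places were not assigned to genes, so its level is uncertain. Over the 3 libraries of each group NCF1B had 6 counts in insR GSK-LSD1, 17 in insR DMSO, 4 in WT GSK-LSD1 and 3 in WT DMSO, and NCF1C had 1 count, in insR GSK-LSD1. Summed over the 3 loci the mean was 0.556 CPM in insR GSK-LSD1, 0.976 in insR DMSO, 0.166 in WT GSK-LSD1 and 0.293 in WT DMSO.

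RAC2, the Rac protein of blood cells, had 2, 1 and 3 counts in insR GSK-LSD1, 7, 2 and 2 in insR DMSO, 5, 3 and 1 in WT GSK-LSD1 and 2, 3 and 4 in WT DMSO. Pooled over a group this is 0.343 CPM in insR GSK-LSD1 (95% exact Poisson interval 0.126 to 0.747), 0.509 in insR DMSO (0.254 to 0.912), 0.443 in WT GSK-LSD1 (0.203 to 0.841) and 0.48 in WT DMSO (0.219 to 0.911). The groups overlapped, and the intervals cover counting error only. NCF1 and RAC2 did not pass the filter on low counts and were not tested. With no filter beyond 1 count, edgeR called neither gene in any of the 5 comparisons, with adjusted p of 0.341 to 0.95 for NCF1 and 0.838 to 1 for RAC2.

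Over the members, 3 of 5 were tested. Under GSK-LSD1 in WT cells CYBA and NCF4 rose, and 22.7% of the 12864 genes tested were called higher there (45.2% in either direction). In insR cells 0 of the 3 were called, where edgeR called 0.505% of genes in either direction and 0.241% higher. The 3 had unadjusted p of 0.14 to 0.571, so that 0 lay under 0.05, and 0 were called by limma-voom. DESeq2 called neither CYBA nor NCF4, and it gave no adjusted p for CYBB, so it could not call that gene. For the difference in response 0 of the 3 were called, against 25.1% of genes, and only CYBA had an unadjusted p under 0.05 (0.0311). DESeq2 and limma-voom called 0 there too. In insR against WT cells 1 of 3 was lower in DMSO, NCF4, where 30.1% of genes were called in either direction and 15.6% lower. Under GSK-LSD1 2 of 3 were lower, NCF4 and CYBA, where 54.5% were called in either direction and 27.5% lower. The median log2 fold change of the 3 tested genes was 0.36 in the WT response and 0.11 in the insR response, with 0.011 and -0.001 over all genes.

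**Figure D2:**
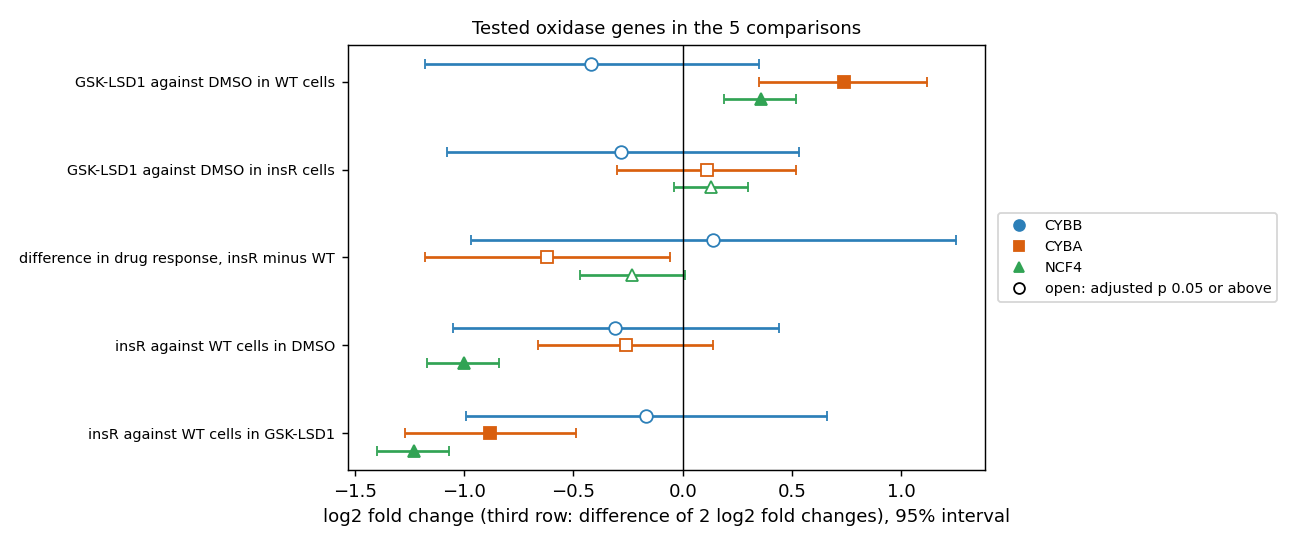
Log2 fold changes (x axis) of CYBB, CYBA and NCF4 with 95% intervals in the 5 comparisons, of which the third is a difference of log2 fold changes. Filled symbols have an edgeR adjusted p under 0.05. NCF4 is at -1 and -1.23 in the genotype comparisons, CYBA at 0.74 in the WT response, and every CYBB interval crosses 0.

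Other values moved with the treatment in WT cells and with genotype. The summed level of the 9 monocyte and macrophage markers, of which 6 had a read, was 215 to 242 CPM in WT GSK-LSD1, against 85.9 to 112 CPM in WT DMSO. The 8 neutrophil markers summed to 4.58 to 5.48 CPM in WT GSK-LSD1, with 4 at 0 counts, against 0.536 to 1.21 CPM in WT DMSO, also with 4 at 0. Mast cell, basophil and eosinophil markers summed to 960 to 1050 CPM in WT GSK-LSD1 and 673 to 742 CPM in WT DMSO. Lymphoid sums were low but also separated these groups. B cell markers summed to 23.9 to 24.8 CPM in WT GSK-LSD1 and 14.7 to 19.3 CPM in WT DMSO. For T and NK cell markers the sums were 15.9 to 20.2 CPM in WT GSK-LSD1 and 14.3 to 15.4 CPM in WT DMSO. Of uniquely aligned reads, 18.4% to 19.5% lay outside genes in WT GSK-LSD1, against 16.3% to 16.7% in WT DMSO. Marker sums also separated the genotypes in DMSO. Mast cell, basophil and eosinophil markers summed to 900 to 1070 CPM in insR DMSO and 673 to 742 CPM in WT DMSO, and neutrophil markers to 1.98 to 5.45 CPM in insR DMSO and 0.536 to 1.21 CPM in WT DMSO. T and NK cell markers summed to 10.1 to 12.3 CPM in insR DMSO and 14.3 to 15.4 CPM in WT DMSO. B cell markers summed to 10.4 to 14 CPM in insR DMSO and 14.7 to 19.3 CPM in WT DMSO. Erythroid markers, given above, were also higher in insR libraries. The part of these values in the CYBA and NCF4 results was not tested.

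Over the 12 libraries, log2 CPM of CYBA and NCF4 had a Pearson correlation of 0.75, CYBA and CYBB of -0.22 and NCF4 and CYBB of 0.21. The points share 4 groups, so these are descriptions of group differences. The genes most like NCF4 were ARHGAP22 (r = 0.996), RDX (0.992) and EVL (0.992). ARHGAP22 averaged 37.7 CPM in insR GSK-LSD1, 35 in insR DMSO, 76.3 in WT GSK-LSD1 and 61.7 in WT DMSO, the same order of groups as NCF4. Those most like CYBA were NFKBIE (r = 0.942), CD81 (0.94) and SCAND1 (0.938). NFKBIE averaged 13.9 CPM in insR GSK-LSD1, 13.3 in insR DMSO, 27 in WT GSK-LSD1 and 14.8 in WT DMSO. For CYBB the highest values were 0.76 for DDX39B and ZMYM3 and 0.723 for CRACR2A.

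Proteins that stabilize or prime the oxidase, with the NCF1 copies, made up a list of 7 partner genes, of which 5 were tested. In the WT response 2 of the 5 rose and 1 fell, where 22.7% of all genes were called higher and 22.5% lower. In insR cells 0 were called, where 0.505% of all genes were. CYBC1, the chaperone that stabilizes the gp91phox heterodimer, was at 51.2 ± 1.85 CPM in WT GSK-LSD1 and 41.1 ± 3.55 CPM in WT DMSO (SD, n = 3 each), a log2 fold change of 0.32 (edgeR adjusted p = 0.0234). The call did not survive leaving out replicate 1 or 2 of WT DMSO or replicate 3 of WT GSK-LSD1, or having no filter beyond 1 count (edgeR adjusted p 0.0617 to 0.0918, with 0.00985 to 0.0918 over all alternatives). Its response was -0.20 in insR cells, and the difference, insR minus WT, was -0.52 (SE 0.16, edgeR adjusted p = 0.0185). It missed the threshold when replicate 2 of WT DMSO, replicate 1 of insR DMSO or replicate 3 of insR GSK-LSD1 was left out (edgeR adjusted p 0.052 to 0.0664, with 0.00842 to 0.0664 over all alternatives). HEXDC overlaps CYBC1 on the opposite strand and had 64 to 194 counts per library, and no source used here says whether counting used strand.

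RAP1A, a small GTPase that copurifies with the membrane heterodimer, fell in WT cells to 79.4 ± 11.8 CPM under GSK-LSD1, against 122 ± 15.1 CPM in DMSO (SD, n = 3 each). The log2 fold change was -0.62 in WT cells (SE 0.11, edgeR adjusted p = 3.94e-05) and -0.07 in insR cells, and the difference of 0.55 passed (edgeR adjusted p = 0.00746). RHOG, which acts upstream of Rac, had 0.27 in the WT response (edgeR adjusted p = 0.0199). It missed the threshold when replicate 1 or 2 of WT DMSO or replicate 3 of WT GSK-LSD1 was left out (edgeR adjusted p 0.0648 to 0.117, with 0.0018 to 0.117 over all alternatives). RAC1, the broadly expressed Rac, was at 442 ± 31.8 CPM in insR GSK-LSD1, 434 ± 20.3 in insR DMSO, 516 ± 60.7 in WT GSK-LSD1 and 517 ± 57 in WT DMSO (SD, n = 3 each). CDC42, a related GTPase, averaged 174 to 196 CPM over the 4 groups, and both genes had log2 fold changes of 0 in the WT response, whose sign changed with the setting.

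**Figure D3:**
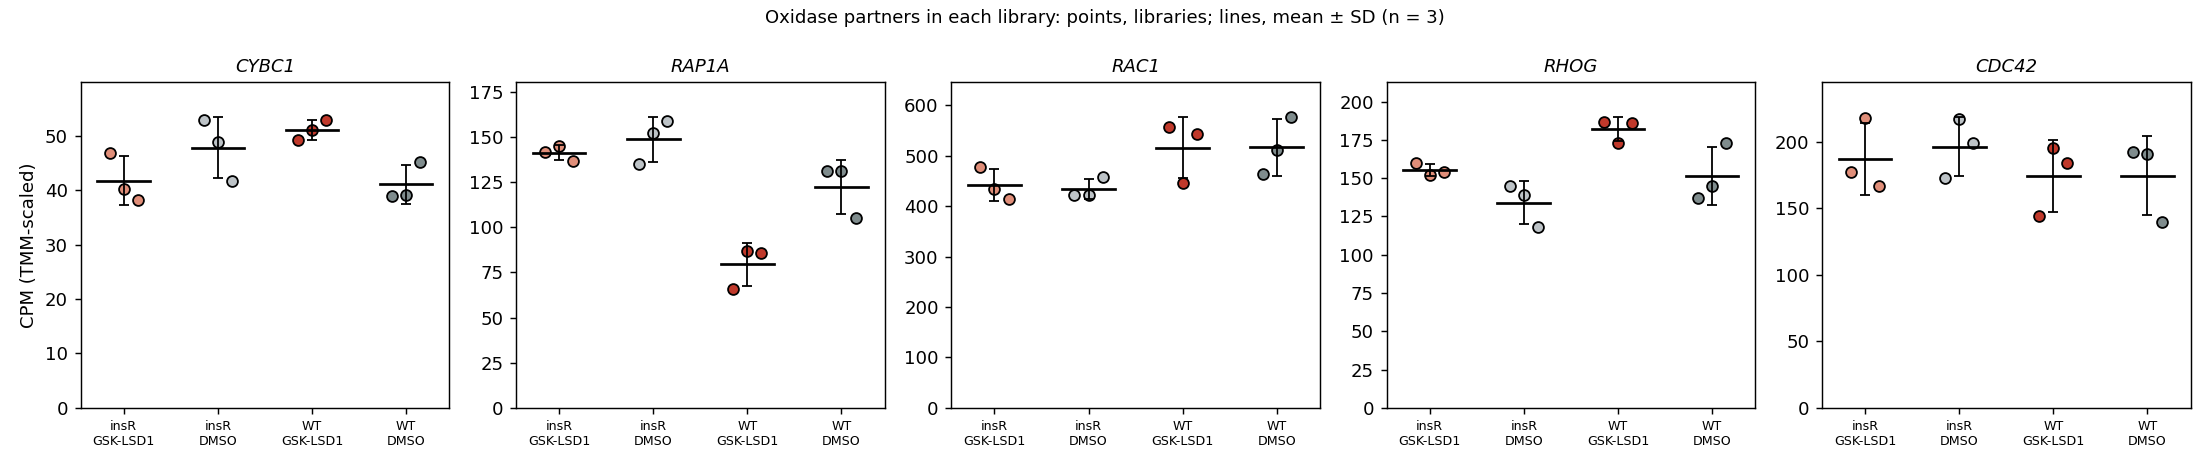
CPM of the 5 tested partner genes (y axis, each panel from 0 on its own scale) in insR and WT cells with GSK-LSD1 or DMSO. Points are libraries in replicate order and lines are the mean ± SD of 3. RAP1A is lowest in WT GSK-LSD1, at a mean of 79.4 CPM, and CDC42 averages 174 to 196 CPM in all 4 groups.

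The wider pathway was followed in lists of genes that feed, trigger or control the oxidase. Each list's counts stand beside calls in all genes of 22.7% higher and 22.5% lower in the WT response, 0.505% in insR cells and 25.1% for the difference in response. Of 13 tested regulators of Rac, 9 rose and 1 fell in WT cells under GSK-LSD1, with a median log2 fold change of 0.61 against 0.011 over all genes. In insR cells 0 of 13 were called, with a median of 0.03, and for the difference in response 7 of 13 were called lower in insR. Under GSK-LSD1 8 of the 13 were lower and 3 higher in insR than in WT cells. In that comparison 27.5% of all genes were called lower and 27% higher. The Rac activator DOCK2 rose to 55.4 ± 7.06 CPM in WT GSK-LSD1, against 17.6 ± 2.35 CPM in WT DMSO (SD, n = 3 each), with a log2 fold change of 1.67 (edgeR adjusted p = 1.07e-09). VAV1, an exchange factor for Rac, rose by 1.14 on the log2 scale (edgeR adjusted p = 5.33e-06). ARHGAP25, a GTPase-activating protein of phagocytes that switches Rac off, rose by 2.05, and BCR, which also has that activity, by 0.97. Activators and inactivators of Rac were thus both among the genes that rose.

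Of 19 kinases and lipid enzymes that act on the oxidase or its phosphoinositides, all tested, 9 rose and 2 fell in WT cells, with a median of 0.25. In insR cells 0 were called, where 0.505% of all genes were. For the difference in response 4 of 19 were called, all lower in insR, which is no larger a share than the 25.1% of all genes. PIK3CG, the class I phosphoinositide 3-kinase coupled to chemoattractant receptors, was at 23.2 ± 3.7 CPM in WT GSK-LSD1 and 7.8 ± 0.363 CPM in WT DMSO (SD, n = 3 each, log2 fold change 1.56). PIK3C3, which makes the phosphoinositide that the PX domain of p40phox binds, rose by 0.97, PRKCE by 2.83 and BTK by 0.47.

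Among receptors that trigger the burst, 9 of 15 were tested, and 4 rose and 1 fell in WT cells. ITGAM, the alpha chain of the complement receptor Mac-1, rose by 1.80 in WT cells (edgeR adjusted p = 9.12e-11) and was the 1 receptor called in insR cells, at 0.82 (edgeR adjusted p = 0.00425). Its beta chain ITGB2 rose by 0.26 in WT cells (edgeR adjusted p = 0.0126) and was not called without WT DMSO replicate 1 (edgeR adjusted p = 0.0672, with 0.004 to 0.0672 over the alternatives). PTAFR, the platelet-activating factor receptor, rose by 1.28, and the Fc receptor FCGR2A fell, with a log2 fold change of -1.19.

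Of 10 genes of other NADPH oxidases 2 passed the count filter, DUOX2 and its maturation factor DUOXA2. DUOX2 was at 5.57 ± 1.62 CPM in insR GSK-LSD1, 11.1 ± 0.789 in insR DMSO, 7.01 ± 1.85 in WT GSK-LSD1 and 3.15 ± 1.75 in WT DMSO (SD, n = 3 each). In WT cells DUOX2 rose by 1.07 (edgeR adjusted p = 0.00922, and 0.71 on the log2 scale with 0.0523 without WT DMSO replicate 3, with 0.00153 to 0.0523 over the alternatives). DUOXA2 had a log2 fold change of 2.43 in WT cells, from 36 counts in WT GSK-LSD1 and 6 in WT DMSO. Its size is loosely set, at 4.27 without WT DMSO replicate 1 and 1.93 to 2.82 under the other alternatives. The 2 genes had -0.98 and -0.76 in insR cells, where neither passed (edgeR adjusted p = 0.156 and 0.67). Both were higher in insR than in WT cells in DMSO, by 1.77 and 3.52 (edgeR adjusted p = 6.43e-05 and 1.48e-05).

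Of 13 tested genes that handle superoxide and peroxide, 4 rose and 7 fell in WT cells, with a median of -0.24, and 0 were called in insR cells. SOD1, which turns superoxide into peroxide, fell to 744 ± 38.6 CPM in WT GSK-LSD1, against 1330 ± 85 CPM in WT DMSO (SD, n = 3 each, log2 fold change -0.84). Catalase (CAT) had -0.80 and glutathione reductase (GSR) -0.74. Glutathione peroxidase GPX1 rose by 0.84.

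Of 10 tested transcription factors known to act on oxidase genes, 7 rose and 0 fell in WT cells, with a median of 0.89, and 1 rose and 0 fell in insR cells. For the difference in response 4 were called, all lower in insR. SPI1, which encodes PU.1, was at 22.8 ± 2.25 CPM in WT GSK-LSD1 and 10.3 ± 0.917 CPM in WT DMSO (SD, n = 3 each), a log2 fold change of 1.13 (edgeR adjusted p = 1.87e-06). In insR cells SPI1 had 0.57 (edgeR adjusted p = 0.0959), and the difference of -0.56 did not pass (edgeR adjusted p = 0.0603). It passed with upper-quartile scaling and without WT GSK-LSD1 replicate 3 or insR DMSO replicate 3 (edgeR adjusted p 0.0438 to 0.0492, with 0.0438 to 0.182 over all alternatives). The repressor GFI1 rose by 3.48 and the chromatin organizer SATB1 by 1.47 in WT cells. CEBPA, a factor of granulocyte and monocyte development, had 2 counts in insR GSK-LSD1, 0 in insR DMSO, 49 in WT GSK-LSD1 and 7 in WT DMSO, summed over 3 libraries each. It rose by 2.65 on the log2 scale in WT cells (SE 0.55, edgeR adjusted p = 0.000371), and at these counts its insR response was not measurable.

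**Figure D4:**
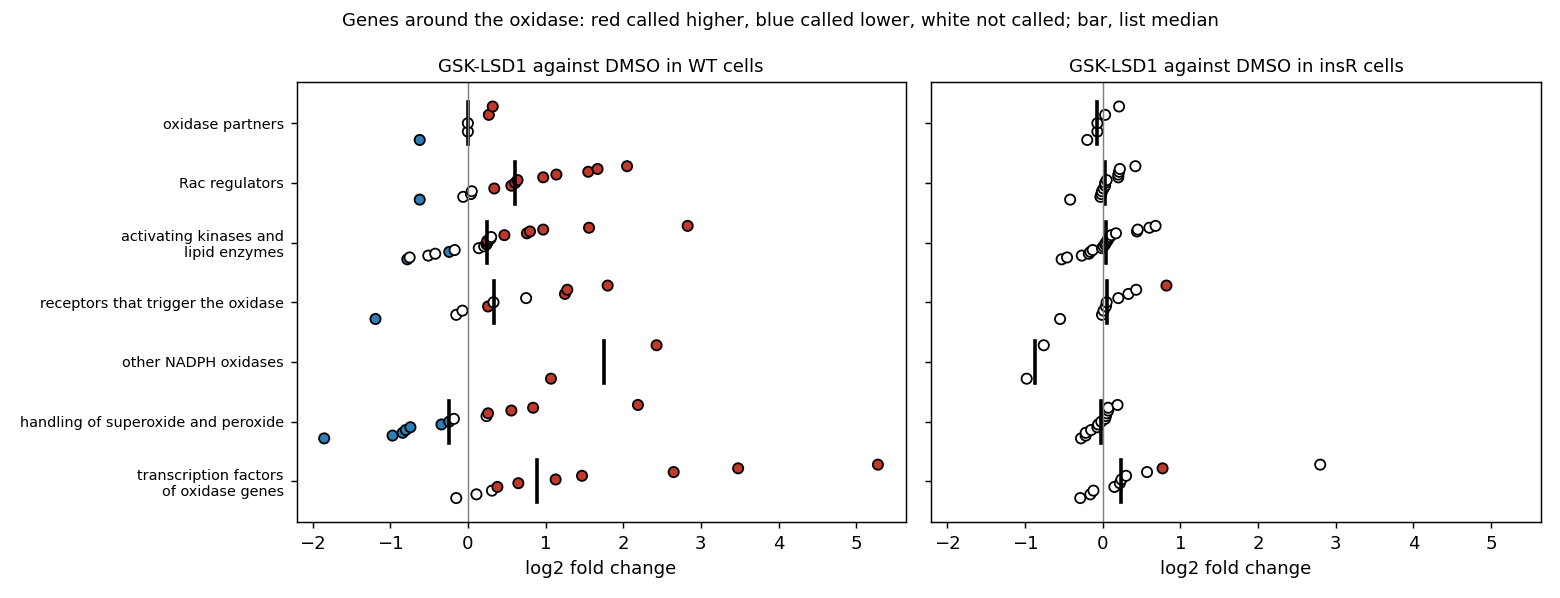
Log2 fold changes under GSK-LSD1 (x axis, shared) of the tested genes of each list, in WT cells on the left and insR cells on the right. Red points were called higher, blue lower, white not called, and bars are list medians. In WT cells 9 of 13 Rac regulators are red with a median of 0.61, and in insR cells nearly all points are white.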

How the data were processed

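Transcript levels were measured in 12 SET-2 libraries, grouped by the sample titles. Libraries were QuantSeq 3' forward libraries of polyadenylated RNA, per the labels' protocols. The deposited values are raw counts of reads per gene. The submitters' processing notes list bcl2fastq 2.2, STAR 2.6.0c, HTSeq 0.9.1 and hg19. No source used here gives the annotation release or the strand setting. Entries that stand for no gene, mostly reads aligned to several places, held 65.7% to 69.1% of each library's total. They entered neither library sizes nor tests. Genes without a matched symbol were kept. Names came from a table of Ensembl identifiers, matched for 52181 of 63677 genes. Overlapping genes and chromosomes came from GENCODE on GRCh38, for names only.

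All 12 libraries were fitted together with edgeR 4.0.16 in R 4.3.3 (quasi-likelihood, robust, TMM scaling, filterByExpr), and p-values were adjusted by Benjamini-Hochberg over 12864 genes, with calls below 0.05. SEs were taken from the F statistic. The members and lists were chosen with earlier results of these data known. Beyond the 5 members, all tested partner genes, 4 genes of lowest p in the WT response per list, and the 3 genes of highest correlation per member (mean of at least 10 CPM in 1 group) were named. Some list genes are not reported here and were left out of the lists' counts. Genes named from the lists are thus chosen by the WT response, and their values there are a description. Alternatives were 2 other scalings, 2 other filters, DESeq2 1.42.0, voom of limma 3.58.1, a replicate block, fits restricted to the groups of a comparison, and leaving out single libraries. Replicates of a group differed by more than sampling noise (chi-square over degrees of freedom 2.9 to 7.77). The fit was tested on simulated counts. Figures were made with matplotlib 3.10.9.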

Additional observations from a re-analysis of the deposited data

Results flagged for a closer look

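The drug response differed between insR and WT cells, by the edgeR test of the difference itself, for 2 of the 5 tested oxidase partners, for 17 of the 22 genes named from the other lists and for 0 of the 3 tested oxidase subunits, where 25.1% of all 12864 genes were called. PTAFR, FCGR2A, ITGB2, SPI1 and CEBPA were the 5 of the 22 not called. Values are differences of log2 responses, insR minus WT. The partners were CYBC1 at -0.52 and RAP1A at 0.55. Among Rac regulators they were -1.69 for DOCK2, -1.63 for ARHGAP25, -1.17 for VAV1 and -0.76 for BCR. Among kinases and lipid enzymes they were -2.23 for PRKCE, -0.87 for PIK3CG, -0.79 for PIK3C3 and -0.43 for BTK. For ITGAM the difference was -0.98. DUOXA2 had -3.19, which was -5.02 without WT DMSO replicate 1, and DUOX2 had -2.05. Among genes that handle superoxide and peroxide they were 0.78 for SOD1, 0.67 for GSR, 0.65 for CAT and -0.77 for GPX1. Among transcription factors they were -2.71 for GFI1 and -1.23 for SATB1. The list genes were named for their low p in the WT response, which enters this difference. That choice in part fixes both how many were called and their direction. The 17 of 22 can therefore not be set against the 25.1%. Of all tested genes, 7 of 13 Rac regulators, 4 of 19 kinases and lipid enzymes and 1 of 9 receptors were called. So were 2 of 2 genes of other NADPH oxidases and 4 of 10 transcription factors. Of the 13 genes that handle superoxide and peroxide, 3 were called higher and 1 lower. Leaving out single libraries ended 3 further calls. For PRKCE these were replicate 2 of WT DMSO, replicates 1 and 2 of insR DMSO and replicate 1 of insR GSK-LSD1 (edgeR adjusted p 0.0543 to 0.233, with 0.011 to 0.233 over the alternatives). For PIK3CG they were replicate 1 of insR DMSO and replicate 3 of insR GSK-LSD1 (edgeR adjusted p 0.0501 to 0.0527, with 0.00866 to 0.0527 over the alternatives). For BTK they were replicate 2 of WT DMSO and replicate 1 of both insR groups (edgeR adjusted p 0.0528 to 0.074, with 0.0103 to 0.074 over the alternatives).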

How the results depend on the processing

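Of 296 values of the 3 tested subunits under the alternatives, 289 kept their direction and side of the threshold, 1 passed anew and 6 changed sign, none of these 6 with a call. Leaving out 1 library at a time, the difference in CYBA response ranged from -0.91 to -0.41 and passed only without WT DMSO replicate 3, so that 0 to 1 subunits were called. CYBA in insR against WT cells in DMSO ranged from -0.47 to 0.03, CYBB under GSK-LSD1 from -0.45 to 0.13, and the difference in CYBB response from -0.14 to 0.44. RAC1 ranged from -0.07 to 0.09 in the WT response, -0.04 to 0.08 in the insR response and -0.07 to 0.1 for their difference, and CDC42 from -0.13 to 0.12, -0.19 to 0.02 and -0.19 to 0.06 in the same comparisons. CDC42 in insR against WT cells under GSK-LSD1 ranged from -0.02 to 0.18, and the difference in RHOG response from -0.16 to 0.01. With upper-quartile scaling RAC1 had 0.05 in the WT response and -0.01 for the difference, and with limma-voom 0 in the WT response. CDC42 had -0.02 there with no filter beyond 1 count, -0.01 with at least 1 CPM in 3 libraries and 0 in a fit on the WT groups alone. The difference in CEBPA response was 0.15 without a call, -0.61 with DESeq2, -1.15 with limma-voom and -0.16 to 0.59 without 1 library, and with insR DMSO at 0 counts it depends on the prior count. The number of genes called in insR cells was 65, against 118 with no filter beyond 1 count, 100 in a fit on the insR groups alone and 27 to 91 without 1 library. It was 28 and 27 without replicate 1 or 2 of insR GSK-LSD1, and 31 and 33 without replicate 1 or 2 of insR DMSO. The cause of these changes was not tested.

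Replicate numbers did not pair the libraries. Over 18 pairs of the same number, deviations correlated at -0.17 to 0.2, with 3 pairs over 0.1, and 6 of 12 libraries correlated best with their own number. With the replicate block 5818 genes were called in the WT response, 60 in insR cells, 3198 for the difference, 3897 for genotype in DMSO and 6994 under GSK-LSD1, and 2, 0, 0, 1 and 2 subunits.

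Depth limits CYBB, with 7 to 26 counts per library, and RAC2, whose differences were not detectable at this depth. For NCF1, reads shared with its copies also limit the level, which in insR DMSO was 0.245 CPM alone and 0.976 CPM summed with them. Nothing here measures protein or superoxide.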
